A study of Homo sapiens with 9 samples.

Results

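The genes described here are 32 genes of cholesterol and fatty acid synthesis, chosen by name from the 20030 genes counted in each library. They comprised 7 genes of the mevalonate pathway, 11 genes that turn farnesyl diphosphate and squalene into cholesterol, 5 genes that control the pathway or move sterols, 4 genes that supply acetyl-CoA and make palmitate, and 5 genes that lengthen or desaturate fatty acids. All 32 genes had at least 10 counts in each of the 9 libraries, from 24 counts for INSIG2 to 23058 counts for SCD, and all were tested in every comparison.

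Liver cells make cholesterol from acetyl-CoA through mevalonate and squalene, and fatty acids from acetyl-CoA through malonyl-CoA and palmitate. Many enzymes of both routes are switched on by the SREBP transcription factors, which the escort protein SCAP carries from the endoplasmic reticulum to the Golgi apparatus for cleavage when sterols are scarce. INSIG1 and INSIG2 hold SCAP back when sterols are plentiful, and INSIG1 is itself a well-known SREBP target.

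RNA of 3 human hepatocellular carcinoma (HCC) cultures was sequenced in 3 libraries each. MHCC97L is an established HCC cell line and received no drug. MHCC97L-Src was derived from it by rising doses of saracatinib, an inhibitor of the tyrosine kinase Src, until the cells were stably resistant to 4 μmol/L, and MHCC97L-Oxa consisted of MHCC97L cells stably resistant to 2 μmol/L oxaliplatin, a platinum drug that damages DNA. The study asked which genes differ between each resistant line and its parent. The study calls the experiments behind the comparison of MHCC97L with MHCC97L-Src independent. Neither it nor the labels say whether the libraries came from separate cultures, whether a resistant line was a clone or whether drug was present at harvest, so p-values measure the spread between these libraries, which may be technical.

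The libraries held 16970486 to 18209213 reads assigned to genes. The hepatocyte genes ALB, AFP and AHSG had 0 counts in all 9 libraries and HNF4A had 2 to 13, so the labelled hepatoma identity rested here on the epithelial keratins KRT8 and KRT18. Summed over 10 hepatocyte markers, which KRT8 and KRT18 made up almost entirely, the level was 2939 to 5827 CPM (read counts scaled to library size by the TMM method) in MHCC97L, 4553 to 7161 CPM in MHCC97L-Src and 2968 to 3227 CPM in MHCC97L-Oxa. The summed level of 8 markers of other cell types was 1892 to 3731, 786 to 1144 and 1684 to 1973 CPM in the same order, nearly all of it from KRT7, and the leukocyte gene PTPRC had 0 counts. MHCC97L replicate 1 stood apart. GC content and transcript length accounted for 66.1% of the variance of its deviations from the mean of the 9 libraries. In the others the share was 3.65% to 47.2%. Its lowest correlation with a library of its own line was 0.859, with MHCC97L replicate 2, for which this was also the lowest. Over the 32 genes the deviations of MHCC97L replicate 1 fell with GC content (Spearman rho = -0.84, over genes of the same library), and it held the highest value of 12 genes and the lowest of 15. MHCC97L-Src replicate 2 leaned the other way (rho = 0.81 over the 32 genes) and held the highest value of 12. Fits with a correction of every library for GC content and length are therefore given beside the fits of the counts as they stand.

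Promoter sequences of 4 genes whose counts are described below are shown, since LSS, DHCR7 and INSIG1 differed between the resistant lines and SREBF2 encodes a factor that regulates the pathway. Each is the stretch before the start of transcription given by RefSeq (GRCh38.p14) and clear of the exons of the gene in GENCODE 29, 5′ to 3′ on the strand of the gene. Capitals mark CCAAT (the box bound by NF-Y), GGGCGG (the GC box bound by Sp1) and TCACNCCAC (the letters of a classical sterol regulatory element), read on either strand, so that CCAAT appears as ATTGG and GGGCGG as CCGCCC on the other.
LSS, chr21:46228825-46228974, - strand: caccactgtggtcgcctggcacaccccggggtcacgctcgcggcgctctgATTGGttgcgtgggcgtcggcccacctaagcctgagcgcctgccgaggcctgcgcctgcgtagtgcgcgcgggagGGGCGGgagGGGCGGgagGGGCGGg
DHCR7, chr11:71448436-71448585, - strand: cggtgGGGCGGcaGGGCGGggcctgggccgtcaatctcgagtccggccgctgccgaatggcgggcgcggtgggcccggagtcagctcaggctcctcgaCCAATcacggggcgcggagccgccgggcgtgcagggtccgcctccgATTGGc
INSIG1, chr7:155297628-155297775, + strand: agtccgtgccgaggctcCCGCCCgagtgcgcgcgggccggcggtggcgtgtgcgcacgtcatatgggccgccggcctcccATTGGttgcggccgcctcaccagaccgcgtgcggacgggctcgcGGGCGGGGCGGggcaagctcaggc
SREBF2, chr22:41832929-41833078, + strand: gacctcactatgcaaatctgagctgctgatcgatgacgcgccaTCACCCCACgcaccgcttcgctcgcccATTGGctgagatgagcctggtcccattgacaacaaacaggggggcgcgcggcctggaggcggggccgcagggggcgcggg

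The LSS stretch held 1 CCAAT and 3 GGGCGG, and that of DHCR7, at the first of its 2 RefSeq starts, held 2 of each. At the second DHCR7 start, which is not shown, the stretch held 0 of each of the 3 motifs. The DHCR7 stretch shown lies within the bounds of the gene in GENCODE 29, which begins further upstream. The INSIG1 stretch held 1 CCAAT and 3 GGGCGG, 2 of them overlapping. SREBF2 had the only TCACNCCAC among the members' promoters, at position -133 counted from the start. The RefSeq table held 39 promoters of 300 bases (250 before and 50 after a start) for 28 of the 32 genes, without ACAT2, FASN, SQLE and FDFT1. CCAAT lay in 26 of the 39 (66.7%), against 34.6% of all 35116 promoters, and GGGCGG in 34 of the 39 (87.2%), against 44.95% of all. TCACNCCAC lay in 1 of the 39 (2.56%), against 1.13% of all. Counted by gene over protein-coding genes, CCAAT lay in 22 of the 28 members (78.6%) and 42.1% of all, and GGGCGG in 26 (92.9%) and 64.3%. These are matches of letters only.

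Levels of different genes were set side by side only per length, as FPKM (fragments scaled by the authors to the length of the transcript and the depth of the library). SCD, the desaturase that makes oleate, was highest of the 32 genes in all 3 lines, at a mean of 109 FPKM in MHCC97L, 159 in MHCC97L-Oxa and 179 in MHCC97L-Src. FDPS, which makes farnesyl diphosphate, and the sterol isomerase gene EBP held the next ranks in every line, between 81.4 and 101 FPKM. STARD4, a carrier of sterols between membranes, was lowest in every line, at 0.256 to 0.524 FPKM. The acetoacetyl-CoA thiolase gene ACAT2 stood at 11.8 to 19.6 FPKM and HMGCS1, which makes HMG-CoA, at 0.863 to 4.02 FPKM. The summed counts of the 32 genes made up 0.33% to 0.37% of all counts in MHCC97L, 0.38% to 0.47% in MHCC97L-Src and 0.34% to 0.39% in MHCC97L-Oxa. In this sum every MHCC97L-Src library was above every MHCC97L library while MHCC97L-Oxa overlapped both. Genes with many counts weigh most in it. SCD alone had 18984, 13177 and 23058 counts in MHCC97L-Src, against 11515, 13388 and 9093 in MHCC97L. Gene by gene, 17 of the 32 had a positive log2 fold change in MHCC97L-Src against MHCC97L and 15 a negative one. The sum was not compared with that of other sets of genes.

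**Figure D1:**
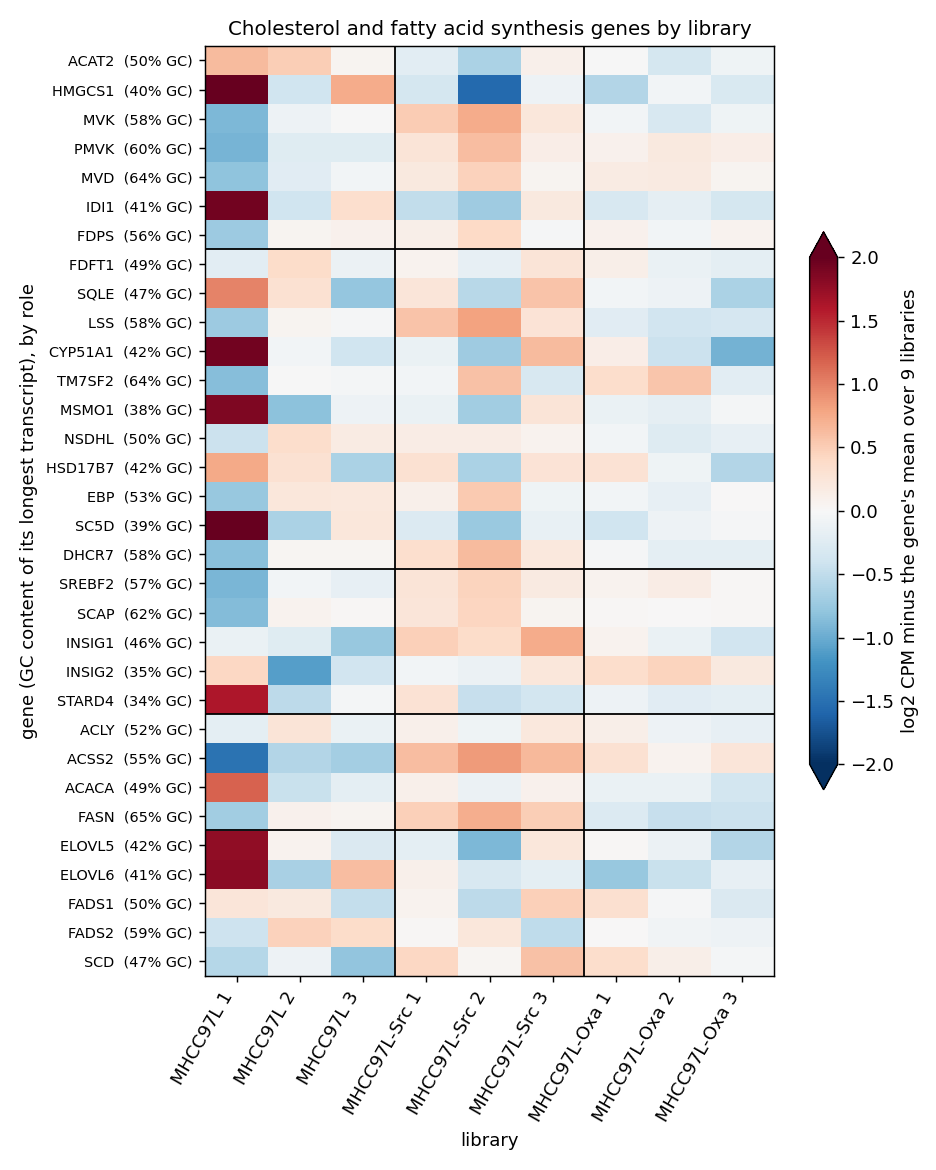
Level of each of the 32 genes in each library, as log2 CPM minus the mean of that gene over the 9 libraries (colors, limited to 2 in either direction), with genes grouped by role and their GC content beside the name. MHCC97L replicate 1, the column on the left, is high for the genes of low GC content and low for those of high GC content, and LSS, INSIG1, ACSS2 and FASN are above their mean in all 3 MHCC97L-Src libraries.

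The resistant lines differed most from each other in FASN and LSS. Between MHCC97L-Src and MHCC97L-Oxa, 4 of the 32 genes were called at an adjusted p under 0.05 by edgeR's quasi-likelihood test, all of them higher in MHCC97L-Src: FASN, LSS, INSIG1 and DHCR7. Of all 11994 genes tested, 4.64% were called, 2.12% higher and 2.52% lower in MHCC97L-Src. DESeq2 called 6 members, adding MVK and ACSS2, and 7% of all genes, and an unadjusted edgeR p under 0.05 was reached by 7 members and by 19.5% of all genes. The difference was positive for 26 of the 32 genes and for 48.1% of all genes, and its median was 0.18 on the log2 scale over the 32 genes and -0.02 over all genes. Without overlap, all 3 MHCC97L-Src libraries lay above all 3 MHCC97L-Oxa libraries for 10 members (13.3% of all genes did so) and below them for 0 (13.1% of all genes). Those 10 were MVK, LSS, NSDHL, DHCR7, SREBF2, SCAP, INSIG1, ACSS2, ACACA and FASN. In RNA of whole cultures, fewer cells with a transcript and less of it per cell cannot be told apart. The calls rested on this comparison's own 6 libraries. When all 9 libraries shared an estimate of the spread, 0 of the 32 genes and 0.703% of all genes were called, with adjusted p = 0.101 for FASN, 0.178 for LSS, 0.335 for INSIG1 and 0.666 for DHCR7. When each library was left out in turn, FASN kept its call in 6 of 6 fits and LSS in 5, and INSIG1 and DHCR7 in 2 each.

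**Figure D2:**
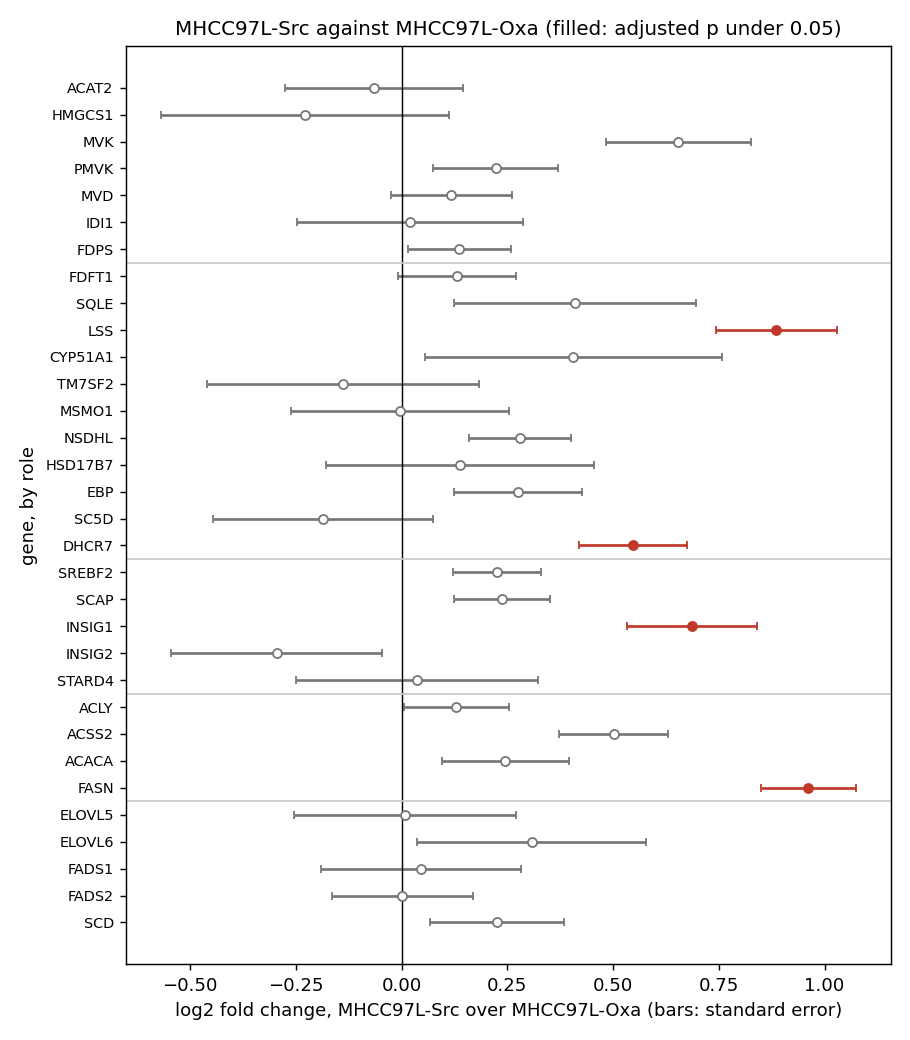
Log2 fold change of each of the 32 genes in MHCC97L-Src over MHCC97L-Oxa, with the standard error as bars, from 3 libraries per line. Filled points are the 4 genes with an adjusted p under 0.05, FASN at 0.96, LSS at 0.89, INSIG1 at 0.69 and DHCR7 at 0.55, and 26 of the 32 points lie right of 0.

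Against MHCC97L, edgeR called 1 of the 32 genes in MHCC97L-Src, ACSS2, and 0 in MHCC97L-Oxa. In MHCC97L-Src 2.13% of 12037 genes were called, 1.43% higher and 0.698% lower, while an unadjusted p under 0.05 was reached by 7 members and by 29.5% of all genes. DESeq2 called 4 members there, ACSS2, INSIG1 and SCD higher and HMGCS1 lower, and 17.6% of all genes. In MHCC97L-Oxa 0.953% of 12064 genes were called, 0.771% higher and 0.182% lower, while an unadjusted p under 0.05 was reached by 3 members (ACSS2, SCD and HMGCS1) and by 22.4% of all genes, and DESeq2 called 1 member, ACSS2, and 7.57% of all genes. The median log2 fold change of the members was 0.03 in MHCC97L-Src, against -0.16 for all genes, and -0.16 in MHCC97L-Oxa, against -0.19. Every MHCC97L-Src library lay above every MHCC97L library for 10 members (18.7% of all genes) and below for 0 (11.2%), and every MHCC97L-Oxa library lay above for 5 (19.6%) and below for 1 (8.42%). PMVK, MVD, SREBF2, ACSS2 and SCD were above all 3 MHCC97L libraries in both lines. The 3 MHCC97L libraries serve in both comparisons, and the values are therefore only given side by side.

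Leaving out MHCC97L replicate 1 raised the calls in both, and so did leaving out MHCC97L replicate 2. Without replicate 2, 3419 of all genes were called in MHCC97L-Src and 2705 in MHCC97L-Oxa, against 672 and 2251 without replicate 1. Without replicate 1, ACSS2 and INSIG1 were called in MHCC97L-Src, both higher (5.52% of all genes, 3.58% higher and 1.94% lower). In MHCC97L-Oxa 6 members were (18.5% of all genes, 11.9% higher and 6.6% lower), of which ACSS2, PMVK and SREBF2 were higher and FADS2, FASN and NSDHL lower than in MHCC97L. With the correction for GC content and length, ACSS2, INSIG1 and INSIG2 were called higher in MHCC97L-Src (10.6% of all genes called, 5.49% higher and 5.11% lower) and ACSS2 and INSIG2 in MHCC97L-Oxa (12.9% of all genes, 6.48% higher and 6.43% lower). Between the resistant lines the corrected fit called 7 members, all higher in MHCC97L-Src (9.62% of all genes, 4.49% higher and 5.13% lower), adding MVK, ACSS2 and SCD to the 4 above.

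**Figure D3:**
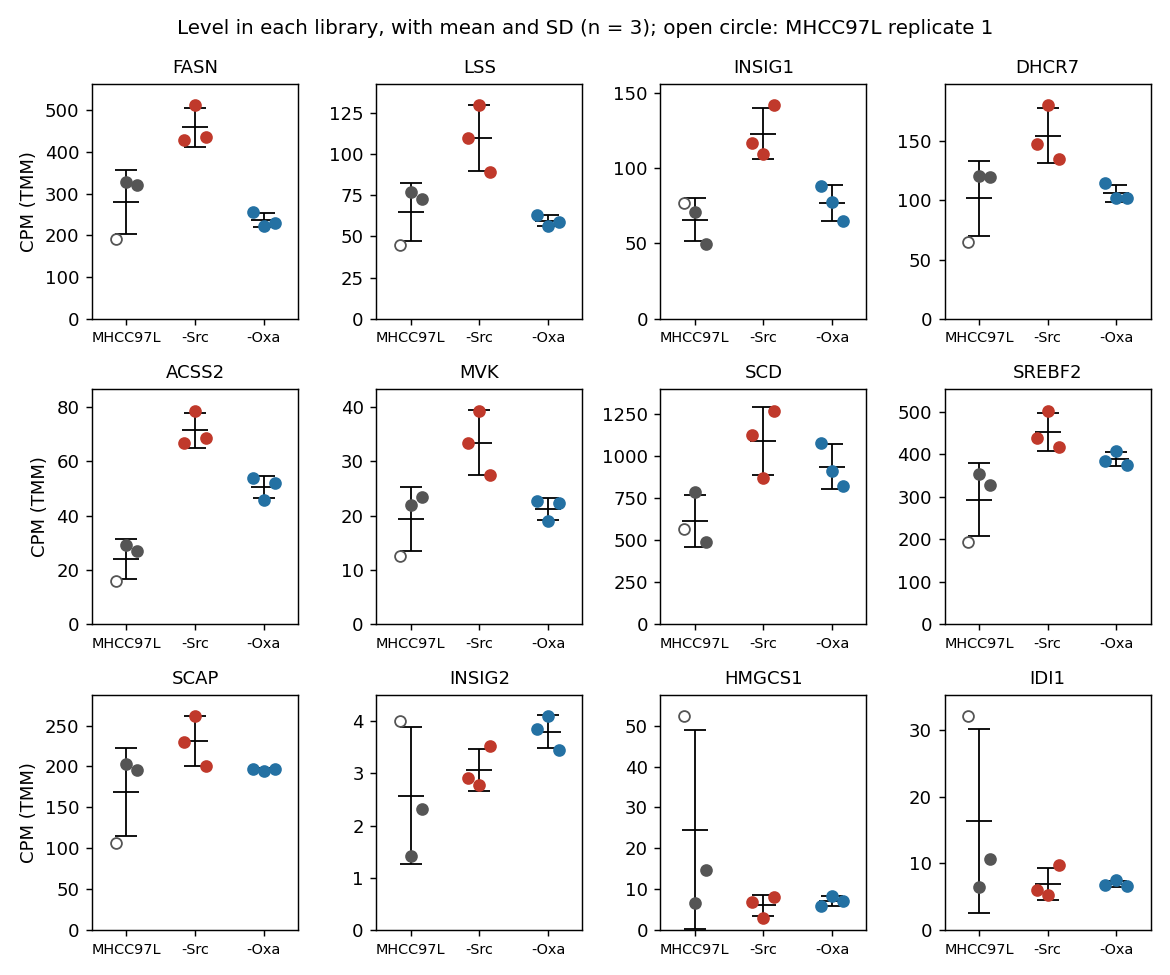
CPM of 12 of the genes in each library (circles, replicate 1 on the left and 3 on the right) with the mean and SD of the 3 libraries of each line. FASN, LSS, INSIG1 and DHCR7 are higher in each MHCC97L-Src library than in each MHCC97L-Oxa library, and MHCC97L replicate 1 (open circle) is far above the other 8 libraries for HMGCS1 and IDI1.

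The genes that supply acetyl-CoA and make palmitate included ACSS2 and FASN, which had the largest differences that edgeR called without the correction in the fits of all 6 libraries. ACSS2 (NCBI gene 55902, GRCh38 chromosome 20, 34872146 to 34927962, + strand) makes acetyl-CoA from acetate. It was counted at 15.8, 29.1 and 27.1 CPM in MHCC97L replicates 1 to 3, at 66.7, 78.6 and 68.5 CPM in MHCC97L-Src and at 53.9, 45.9 and 51.9 CPM in MHCC97L-Oxa. The 3 lines did not overlap, with MHCC97L lowest and MHCC97L-Src highest. ACSS2 rose in MHCC97L-Src by a log2 fold change of 1.53 (SE 0.30, edgeR adjusted p = 0.0441), and the value in MHCC97L-Oxa was 1.03 (SE 0.29, adjusted p = 0.158). With the correction both passed the test, at 1.32 (adjusted p = 0.0037) and 0.88 (adjusted p = 0.0132). The call in MHCC97L-Src was lost in 4 of the 6 fits without a library and when at least 10 counts were asked of every library (adjusted p = 0.0512).

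FASN, the fatty acid synthase (NCBI gene 2194, GRCh38 chromosome 17, 82078333 to 82098332, - strand), was counted at 190.3, 328 and 321 CPM in MHCC97L, 428, 512 and 435 CPM in MHCC97L-Src and 256, 223 and 229.6 CPM in MHCC97L-Oxa. The MHCC97L-Src libraries were above all others, and those of MHCC97L-Oxa lay within the range of MHCC97L. The log2 fold change of MHCC97L-Src over MHCC97L-Oxa was 0.96 (SE 0.11, edgeR adjusted p = 0.0011), and 0.85 with the correction (adjusted p = 0.0033). Against MHCC97L it was 0.67 in MHCC97L-Src (adjusted p = 0.137) and -0.29 in MHCC97L-Oxa (adjusted p = 0.443). Without MHCC97L replicate 1 the latter was -0.41 (adjusted p = 0.0142). ACACA, the acetyl-CoA carboxylase that precedes FASN, and ACLY, which makes acetyl-CoA from citrate, were called in none of the 3 comparisons by edgeR or DESeq2, with log2 fold changes from -0.64 to 0.25 for ACACA and from -0.09 to 0.13 for ACLY. ACACA was highest in MHCC97L replicate 1, and without that library its value in MHCC97L-Src turned from -0.40 to 0.35. MHCC97L-Oxa gave 0.16 in place of -0.64.

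Of the 11 genes from farnesyl diphosphate to cholesterol, 2 were called between the resistant lines, LSS and DHCR7, both higher in MHCC97L-Src. LSS (NCBI gene 4047, GRCh38 chromosome 21, 46188141 to 46228824, - strand) encodes lanosterol synthase, which closes the sterol rings. Its levels were 44.95, 77.0 and 72.7 CPM in MHCC97L, 109.9, 129.8 and 89.4 CPM in MHCC97L-Src and 63.2, 56.6 and 58.7 CPM in MHCC97L-Oxa, so that MHCC97L-Src lay above every other library. The log2 fold change between the resistant lines was 0.89 (SE 0.14, edgeR adjusted p = 0.0070). Its exons overlap those of 2 antisense genes, AP001468.1 and AP001469.1, and the strand setting of the counting is not given in the sources used here.

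DHCR7 (NCBI gene 1717, GRCh38 chromosome 11, 71428193 to 71452868, - strand) encodes the reductase of 7-dehydrocholesterol, a last step to cholesterol. It stood at 65.2, 120.4 and 119 CPM in MHCC97L, 148, 180.2 and 135 CPM in MHCC97L-Src and 114, 102 and 102 CPM in MHCC97L-Oxa. MHCC97L-Src was again highest without overlap, and MHCC97L-Oxa lay between MHCC97L replicate 1 and the other MHCC97L libraries. DHCR7 differed by 0.55 between the resistant lines (SE 0.13, edgeR adjusted p = 0.0395). Against MHCC97L, LSS and DHCR7 had values of 0.72 and 0.56 in MHCC97L-Src (adjusted p = 0.139 and 0.212), and of -0.17 and 0.01 in MHCC97L-Oxa (adjusted p = 0.670 and 0.981).

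SC5D, the sterol C5 desaturase, was counted at 21.4, 3.23 and 5.86 CPM in MHCC97L, 4.15, 2.98 and 4.53 CPM in MHCC97L-Src and 3.79, 4.65 and 4.93 CPM in MHCC97L-Oxa. Its level in MHCC97L replicate 1 was above the other 8 libraries, which ran from 2.98 to 5.86 CPM. The log2 fold change against MHCC97L was -1.45 in MHCC97L-Src and -1.26 in MHCC97L-Oxa (adjusted p = 0.199 and 0.278), and -0.07 and -0.20 with the correction. The other 8 genes of this stretch were FDFT1, SQLE, CYP51A1, TM7SF2, MSMO1, NSDHL, HSD17B7 and EBP. In the fits of all 6 libraries they were called in none of the 3 comparisons by edgeR or DESeq2. Without the correction NSDHL alone had an unadjusted edgeR p under 0.05, between the resistant lines (19.5% of all genes did). With the correction FDFT1 and SQLE reached it there as well as NSDHL (23.9% of all genes). NSDHL, a sterol dehydrogenase, was at 64.3, 64.3 and 60.6 CPM in MHCC97L-Src and 56.0, 48.7 and 51.8 CPM in MHCC97L-Oxa, without overlap, and its log2 fold change of 0.28 did not pass the adjusted test (adjusted p = 0.237). For SQLE, the squalene epoxidase, the value between the resistant lines was 0.41 (SE 0.29), and for EBP 0.27 (SE 0.15). Reads of CYP51A1, with 3 pseudogenes, and HSD17B7, with 2, could be shared with those copies.

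Of the genes that control the pathway, INSIG1 was called between the resistant lines. INSIG1 (NCBI gene 3638, GRCh38 chromosome 7, 155297776 to 155310235, + strand) had 76.7, 71.0 and 49.8 CPM in MHCC97L, 117, 109.4 and 142 CPM in MHCC97L-Src and 88.3, 77.3 and 64.7 CPM in MHCC97L-Oxa. Each MHCC97L-Src library was above the other 6, while MHCC97L and MHCC97L-Oxa overlapped. The difference between the resistant lines was 0.69 on the log2 scale (SE 0.15, edgeR adjusted p = 0.0328). Against MHCC97L it was 0.85 in MHCC97L-Src (SE 0.25, adjusted p = 0.105, and 0.0196 by DESeq2) and 0.17 in MHCC97L-Oxa (SE 0.24, adjusted p = 0.677). With the correction these became 1.28 (adjusted p = 0.0088) and 0.47 (adjusted p = 0.130). Unlike FASN, LSS and DHCR7, which have a GC content of 58.3% to 65.3%, INSIG1 has one of 46.0% and its highest MHCC97L value was in replicate 1.

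INSIG2 (NCBI gene 51141, GRCh38 chromosome 2, 118088452 to 118110997, + strand) had few counts. Its levels were 4.00, 1.41 and 2.31 CPM in MHCC97L, 2.91, 2.78 and 3.53 CPM in MHCC97L-Src and 3.85, 4.10 and 3.46 CPM in MHCC97L-Oxa, and the lines overlapped with MHCC97L replicate 1 near the top. Its log2 fold change against MHCC97L was 0.20 in MHCC97L-Src and 0.49 in MHCC97L-Oxa (adjusted p = 0.806 and 0.517), and 1.47 and 1.43 with the correction (adjusted p = 0.0155 and 0.0191). INSIG2 has a GC content of 35.4%, and its call existed only with the correction. Without MHCC97L replicate 1 the values were 0.73 and 1.07 (adjusted p = 0.372 and 0.0863).

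SREBF2 encodes SREBP2, the factor that acts most on sterol genes. It was counted at 195, 355 and 329 CPM in MHCC97L, 439.8, 503 and 417 CPM in MHCC97L-Src and 385, 408 and 375 CPM in MHCC97L-Oxa, with MHCC97L lowest and MHCC97L-Src highest without overlap. Its log2 fold changes of 0.59 in MHCC97L-Src and 0.36 in MHCC97L-Oxa against MHCC97L, and of 0.23 between the resistant lines, did not pass the test (edgeR adjusted p = 0.172, 0.357 and 0.269). SCAP had 106, 203 and 196 CPM in MHCC97L, 229.5, 262 and 200.5 CPM in MHCC97L-Src and 197, 195 and 197 CPM in MHCC97L-Oxa. Its values of 0.41, 0.17 and 0.24 in the same order did not pass either (adjusted p = 0.333, 0.687 and 0.281). STARD4 was at 10.4 CPM in MHCC97L replicate 1 and at 2.35 to 4.09 CPM in the other 8 libraries.

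Without the correction, edgeR called 0 of the 7 mevalonate genes in the fits of all 6 libraries of a comparison. An unadjusted p under 0.05 was reached by PMVK and HMGCS1 in MHCC97L-Src and by HMGCS1 in MHCC97L-Oxa against MHCC97L, and by MVK between the resistant lines. These were 2, 1 and 1 of the 7 genes, against 29.5%, 22.4% and 19.5% of all genes. DESeq2 called HMGCS1 in MHCC97L-Src and MVK between the resistant lines (adjusted p = 0.014). MVK, the mevalonate kinase (NCBI gene 4598, GRCh38 chromosome 12, 109573255 to 109598117, + strand), had 12.6, 22.0 and 23.4 CPM in MHCC97L, 33.4, 39.3 and 27.4 CPM in MHCC97L-Src and 22.6, 18.95 and 22.2 CPM in MHCC97L-Oxa. MHCC97L-Src lay above the other 6 libraries. Between the resistant lines the log2 fold change was 0.65 (SE 0.17, edgeR adjusted p = 0.0604), and 0.52 with the correction (adjusted p = 0.0272). Exons of MVK overlap those of MMAB on the opposite strand.

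HMGCS1 (NCBI gene 3157, GRCh38 chromosome 5, 43289395 to 43313512, - strand) had the lowest log2 fold change of the 32 genes against MHCC97L in both lines, at -2.10 in MHCC97L-Src (SE 0.77, edgeR adjusted p = 0.129) and -1.87 in MHCC97L-Oxa (SE 0.71, adjusted p = 0.206). It was counted at 52.4, 6.63 and 14.6 CPM in MHCC97L, 6.82, 2.98 and 8.12 CPM in MHCC97L-Src and 5.80, 8.37 and 7.09 CPM in MHCC97L-Oxa. MHCC97L replicate 1 was above all others by far, and MHCC97L replicate 2 lay within the range of the resistant lines. With the correction the values were -0.70 and -0.71 (adjusted p = 0.247 and 0.159). DESeq2 gave an adjusted p of 0.0264 in MHCC97L-Src.

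IDI1, the isomerase of isopentenyl diphosphate, was likewise highest in MHCC97L replicate 1, with 32.1, 6.40 and 10.6 CPM in MHCC97L, 5.99, 5.16 and 9.66 CPM in MHCC97L-Src and 6.75, 7.43 and 6.57 CPM in MHCC97L-Oxa. Its log2 fold changes against MHCC97L were -1.30 and -1.32, and -0.08 and -0.32 with the correction. PMVK and MVD, the kinase and decarboxylase that follow MVK, were at 0.75 and 0.53 in MHCC97L-Src against MHCC97L (0.21 and 0.05 with the correction), and MHCC97L-Oxa gave 0.52 and 0.41 (0.13 and 0.07 with it). ACAT2 was the gene whose MHCC97L-Oxa libraries all lay below MHCC97L, at 26.9, 21.3 and 25.6 CPM against 41.8, 37.9 and 28.1 CPM (log2 fold change -0.60, adjusted p = 0.233). FDPS, with 8 pseudogenes that could share its reads, had values between 0.14 and 0.28 in the 3 comparisons.

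Among the 5 genes that lengthen or desaturate fatty acids, edgeR without the correction called 0 in the fits of all 6 libraries. SCD, 1 of the 5, had an unadjusted edgeR p under 0.05 against MHCC97L in both lines, which share the MHCC97L libraries. Of all genes 29.5% reached this in MHCC97L-Src and 22.4% in MHCC97L-Oxa. DESeq2 called SCD in MHCC97L-Src (adjusted p = 0.0394), where it called 17.6% of all genes. SCD was counted at 569, 786 and 489 CPM in MHCC97L, 1126, 872 and 1273 CPM in MHCC97L-Src and 1083, 913 and 822 CPM in MHCC97L-Oxa. All libraries of both resistant lines were above all MHCC97L libraries, and the resistant lines overlapped. Against MHCC97L the value was 0.79 in MHCC97L-Src (SE 0.26, edgeR adjusted p = 0.117) and 0.56 in MHCC97L-Oxa (SE 0.23, adjusted p = 0.215). It was 0.23 between the resistant lines (adjusted p = 0.467), and 0.30 with the correction (adjusted p = 0.0323).

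ELOVL6, which lengthens palmitate, had 14.2, 2.58 and 6.23 CPM in MHCC97L, 4.33, 3.24 and 3.53 CPM in MHCC97L-Src and 2.40, 2.99 and 3.63 CPM in MHCC97L-Oxa. Again MHCC97L replicate 1 was the highest library and MHCC97L replicate 2 among the lowest. Its log2 fold changes of -1.11 and -1.42 against MHCC97L became 0.22 and -0.37 with the correction, so that its direction in MHCC97L-Src turned. ELOVL5, which lengthens polyunsaturated fatty acids, was at 269.8 CPM in MHCC97L replicate 1 and at 42.4 to 93.1 CPM in the others. The desaturase genes FADS1 and FADS2, whose exons overlap on opposite strands, had log2 fold changes of 0.00 and -0.29 in MHCC97L-Src against MHCC97L, and MHCC97L-Oxa gave -0.05 and -0.30.

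The fold changes against MHCC97L followed the GC content of the genes. Of the 10 members with a GC content under 45%, 9 had a negative log2 fold change in MHCC97L-Src, with a median of -1.03, and of the 11 with 55% or more, 10 had a positive one, with a median of 0.56. All genes tested had medians of -1.29 and 0.34 in the same classes. In MHCC97L-Oxa 9 of the 10 were negative, with a median of -1.17, and 8 of the 11 positive, with a median of 0.14. There the medians of all genes tested were -1.05 and 0.20. Over the 32 genes Spearman's rho between the fold change and GC content was 0.67 in MHCC97L-Src and 0.58 in MHCC97L-Oxa, from comparisons that share the MHCC97L libraries. After the correction it was -0.18 and -0.04. The correction removes the trend of each library with GC content, so a rho near 0 is largely built in. Between the resistant lines rho was 0.38 without the correction, and 28 of the 32 genes were positive after it (54.1% of all genes). The part of GC content in the differences between the lines was not tested beyond these values.

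**Figure D4:**
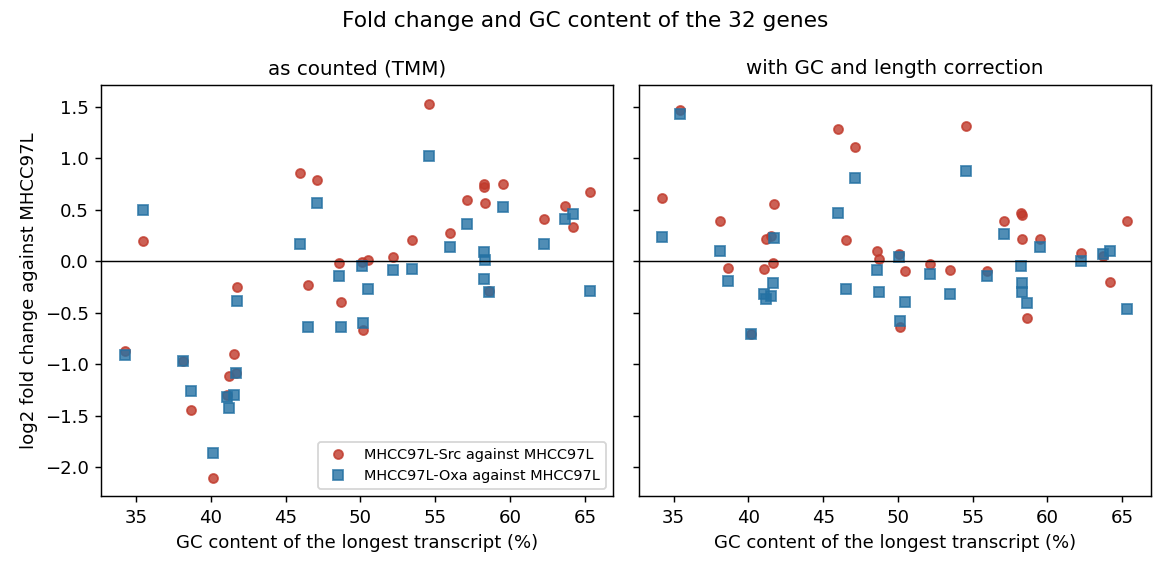
Log2 fold change against MHCC97L of the 32 genes (y axis) by the GC content of their longest transcript in percent (x axis), for MHCC97L-Src (circles) and MHCC97L-Oxa (squares), from the counts as they stand (left) and with the correction for GC content and length (right). Genes under 45% GC lie mostly below 0 on the left and on both sides of 0 on the right, while ACSS2, at 54.6% GC, is the highest point of each line on the left and stays near the top on the right.

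Of 26 further genes of lipid handling, 24 were tested, and edgeR called 0 of them in each comparison. An unadjusted p under 0.05 was reached by 9 in MHCC97L-Src and 6 in MHCC97L-Oxa against MHCC97L and by 6 between the resistant lines, against 29.5%, 22.4% and 19.5% of all genes. DESeq2 called 5, 2 and 1 of the 24, against 17.6%, 7.57% and 7% of all genes. Their median log2 fold changes were -0.51, -0.57 and -0.05 in the same order, and those of all genes -0.16, -0.19 and -0.02. With the correction MYLIP, which encodes a ligase that targets lipoprotein receptors for degradation, was higher in MHCC97L-Src (1.68, adjusted p = 0.0097) and in MHCC97L-Oxa (1.26, adjusted p = 0.0133) than in MHCC97L. Between the resistant lines the corrected fit called LPIN1, a phosphatidate phosphatase (0.68, adjusted p = 0.0149), higher in MHCC97L-Src and NPC1, which exports cholesterol from lysosomes, lower (-0.42, adjusted p = 0.0123).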

How the data were processed

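Stranded libraries of poly(A) selected RNA, 3 for each of MHCC97L, MHCC97L-Src and MHCC97L-Oxa, were sequenced by the authors. The authors deposited raw counts per gene, and FPKM values normalized to length and depth by the authors. The submitters' processing notes name Trimmomatic 0.36, HISAT2 2.2.1.0 and GRCh38.p12; the counting program, its strand setting and the FPKM program are not given in the sources used here.

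Lines were compared pairwise by edgeR's quasi-likelihood test (edgeR 4.0.16, R 4.3.3) on the counts of 6 libraries, with TMM normalization, the filterByExpr filter (minimum count 10) and Benjamini-Hochberg adjustment over all genes tested. A gene was called at an adjusted p under 0.05. CPM values used TMM factors over 9 libraries. For the correction, each library's deviation from the mean was modelled over genes with natural splines of the GC content and the log length of the longest GENCODE 29 transcript (5 degrees of freedom each, 19343 of 20030 genes matched), and the fit entered edgeR as offsets. Alternatives were DESeq2 1.42.0, limma 3.58.1 on log2(FPKM + 1) or log2(FPKM + 0.1), other scalings and filters, a replicate block, all 9 libraries in one fit and each library left out. Depths of 16970486 to 18209213 counts put a floor of 3 counts at 0.148 to 0.198 CPM, which covers counting error only. In simulated data with 200 genes changed 4-fold, 125 were recovered in MHCC97L-Src against MHCC97L (12037 genes), 148 in MHCC97L-Oxa against MHCC97L (12064 genes) and 198 between the resistant lines (11994 genes). False calls numbered 6, 7 and 8 in the same order. The simulation gave all genes of a comparison the same spread and had no trend with GC content or length. Its change was larger than the differences called among the members without the correction in the fits of all 6 libraries (log2 0.55 to 1.53). It therefore does not measure how often such smaller differences would be found.

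The 32 members, the related genes and the tests were chosen with earlier results of these data known. Values of every library are given for members called in any comparison with or without the correction, for SREBF2, SCAP, INSIG1 and INSIG2, and for the 3 largest fold changes of each comparison. NSDHL, STARD4, ACAT2 and ELOVL5, and the single values of other members, were added after their values were seen. The related gene C14orf1 is listed as ERG28 in the table. Values of some related genes and markers are not reported here.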

Additional observations from a re-analysis of the deposited data

Results flagged for a closer look

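For 4 of the 32 genes the test between MHCC97L-Src and MHCC97L-Oxa called a difference, against 4.64% of all genes. This test does not involve the shared MHCC97L libraries. On the log2 scale the lines differed by 0.96 for FASN, 0.89 for LSS, 0.69 for INSIG1 and 0.55 for DHCR7 (edgeR adjusted p = 0.0011, 0.0070, 0.0328 and 0.0395). All 3 MHCC97L-Src libraries were above all 3 MHCC97L-Oxa libraries in each, as for 13.3% of all genes. The test used the same libraries, so this is not separate evidence. When all 9 libraries shared an estimate of the spread, the edgeR adjusted p was 0.101 for FASN, 0.178 for LSS, 0.335 for INSIG1 and 0.666 for DHCR7. With a library left out, INSIG1 and DHCR7 each kept the call in 2 of 6 fits. Groups of 3 libraries were not tested for an outlying library.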

How the results depend on the processing

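For all genes and the members, MHCC97L-Src against MHCC97L gave 2114 and 4 calls with DESeq2 on the same genes, 2187 and 3 with DESeq2 without a filter, 162 and 0 with at least 10 counts in every library, 1276 and 3 with the GC and length correction, 1956 and 3 with all 9 libraries, 2966 and 2 at a threshold of 0.05 on the unadjusted p and of 1 on the absolute log2 fold change, and, for all genes, 702 without a filter. MHCC97L-Oxa against MHCC97L gave 895 and 1 with DESeq2, 930 and 1 without a filter, 1558 and 2 with the correction, 495 and 1 with all 9 libraries and 1951 and 2 at the unadjusted threshold, and for all genes 212 with total counts, 252 with limma on log2(FPKM + 1), 256 on log2(FPKM + 0.1) and 242 without a filter. Between the resistant lines DESeq2 gave 839 and 836 genes without a filter, the correction 1154 and 7, all 9 libraries 86 and 0, and the unadjusted threshold 0 members.

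Leaving out each library gave 22 to 3419 calls for all genes and 0 to 6 for the members in MHCC97L-Src against MHCC97L, 2 to 2705 and 0 to 6 in MHCC97L-Oxa against MHCC97L, and 167 to 1617 and 1 to 6 between the resistant lines. Without MHCC97L replicate 2, 6 members were called in MHCC97L-Src, ACSS2 and SCD higher and HMGCS1, IDI1, SC5D and ELOVL6 lower. Of all genes 3419 were called in that fit, 690 of them higher. In MHCC97L-Oxa 5 members were called without this library, beside 2705 of all genes, 637 of them higher. ACSS2 lost its call in MHCC97L-Src without MHCC97L replicate 3 or any MHCC97L-Src library. The members' median stayed between 0.01 and 0.21, between -0.24 and 0.062, and between 0.15 and 0.22.

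Among the members given in full, the 5 values called by edgeR without the correction in the fits of all 6 libraries kept their sign in every alternative run. Of the remaining values, some of them called elsewhere, the correction gave ELOVL6 0.22 in MHCC97L-Src, MVK -0.051 and DHCR7 -0.21 in MHCC97L-Oxa, and HMGCS1 0.0069, SC5D 0.12 and INSIG2 0.046 between the resistant lines. With limma DHCR7 in MHCC97L-Oxa was -0.019 on both FPKM scales and without a filter, and IDI1 between the resistant lines was -0.083 on log2(FPKM + 1), with and without a filter, -0.18 on log2(FPKM + 0.1) and -0.018 with total counts. Without a library, values ranged from -0.048 to 0.73 for INSIG2 in MHCC97L-Src, in MHCC97L-Oxa from -0.045 to 0.26 for MVK, -0.28 to 0.019 for LSS, -1.61 to 0.016 for SC5D and -0.13 to 0.20 for DHCR7, and between the resistant lines from -0.52 to 0.078 for HMGCS1 and -0.30 to 0.18 for IDI1. The cause was not tested.

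The replicate block gave 988 genes and 1 member in MHCC97L-Src against MHCC97L, 92 and 0 in MHCC97L-Oxa, and 406 and 3 between the resistant lines, where DHCR7 lost its call and IDI1 was -0.033. Together with the correction the block gave 220 and 2 (ACSS2 and INSIG1), 599 and 0, and 473 and 3 (FASN, INSIG1 and LSS). Of the calls made with the correction alone, INSIG2 lost its own in both lines and ACSS2 in MHCC97L-Oxa, and DHCR7, MVK, ACSS2 and SCD lost theirs between the resistant lines. This fit put ELOVL6 at 0.23, MVK at -0.048, DHCR7 at -0.21, SC5D at 0.12 and INSIG2 at 0.059 in the comparisons above. For MHCC97L-Src against MHCC97L, deviations of libraries with the same number correlated at 0.158, 0.210 and -0.629. The values were -0.208, -0.128 and 0.414 for MHCC97L-Oxa against MHCC97L, and 0.029, -0.075 and -0.271 between the resistant lines. They were taken without the correction, and the deviations of the 3 libraries of a line are not independent. Whether the numbers pair the libraries was therefore not settled.

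With 3 libraries per line an exact permutation test could not go below p = 0.1, and genes of few counts such as INSIG2 were measured with little precision.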
